A study of Mus musculus with 15 samples.

Results

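The genes described here encode 10 proteins of the BCL2 family, which set whether a cell lives or dies by the mitochondrial route of apoptosis. They were taken by symbol, and all 10 are given whatever their values. The family itself was chosen with earlier results of these data known. Bcl2, Bcl2l1, Mcl1 and Bcl2a1b encode proteins that block cell death, and Bax and Bak1 encode the effectors. Bid, Bcl2l11, Bad and Bbc3 belong to the BH3-only branch. All 10 were found among the 55335 gene identifiers counted in each RNA library, and all 10 were among the 13077 genes with enough reads to be tested. Each was detected in both groups, and the smallest count of any of them in any library was 55 reads, for Bbc3.

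RNA was sequenced from cultured mouse pre-B cells, the stage of B lymphocyte development at which the immunoglobulin heavy chain has been assembled and the light chain has not. There were 3 libraries titled MSL2WT-preB (wild type below) and 3 titled MSL2KO-preB (knockout below). Both groups carried the Slp65KO genotype, that is, loss of the adaptor protein SLP65 (gene Blnk), and both were untreated and kept in interleukin 7, the cytokine on which such cells depend. The knockout line was made from these cells by CRISPR/Cas9 with a guide RNA to Msl2, which encodes a ubiquitin ligase of the MSL complex, and the series design sets it against the wt clone. The parental cells were grown from a single bone marrow cell, the labels describe 1 line per genotype, and they do not say whether the replicates were separate cultures. The p-values therefore rest on the spread among the libraries at hand, which can be purely technical. The genotype tags of the 6 RNA samples contradict their titles, so each direction given here rests on the titles.

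Proteins of the BCL2 family meet at the outer mitochondrial membrane. BAX and BAK, the effectors, open pores in it and release cytochrome c, which starts the caspase cascade, and the anti-apoptotic members hold the effectors in check. BH3-only proteins carry stress signals to this system by occupying the groove of the anti-apoptotic proteins or by activating the effectors. In developing B cells, interleukin 7 signalling through STAT5 is known to sustain the anti-apoptotic side, and FOXO factors are known to induce Bcl2l11, which encodes BIM.

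Total counts ran from 14092278 to 20803227 per library, so that 3 reads, taken as the limit for a gene with no reads in 1 library, correspond to between 0.141 and 0.212 CPM (CPM, reads scaled by the TMM-adjusted library size, is the unit of all levels below). Msl2 itself was at 97.2, 99.3 and 92.3 CPM in the wild-type libraries and at 105, 103.2 and 121.2 CPM in the knockout libraries (adjusted p 0.302), so the level of its transcript does not check the labels; a count over the whole gene cannot show a small edit. Blnk RNA averaged 98.3 and 112 CPM in wild type and knockout (adjusted p 0.563), so its transcript does not check the stated loss of SLP65 either. The pre-B markers Cd79a, Cd79b, Vpreb1, Igll1, Pax5 and Ebf1 each averaged 180.9 CPM or more in both groups. Of 13 markers on that list 12 were tested, 1 fell (Il7r, below) and 11 did not pass by edgeR, where 3 of the 12 had an unadjusted p under 0.05. On the same list DESeq2 called 0 higher and 1 lower, and limma-voom called 1 higher and 1 lower. The recombination genes on it were low: Rag1 had 0, 34 and 0 reads in wild-type replicates 1 to 3 and 29, 17 and 9 in the knockouts, and Rag2 had 0, 27 and 0 reads against 54, 44 and 37 (adjusted p of 0.868 and 0.223 by edgeR). Both genes were thus read in 1 of 3 wild-type libraries, replicate 2, and in all 3 knockouts. Dntt, with 3 to 17 reads a library, was not tested. Of 10 T and NK markers the summed level was between 1.92 and 4.57 CPM in the wild type and between 2.96 and 4.42 CPM in the knockout, and of 10 myeloid markers between 0.929 and 2.03 CPM and between 0.892 and 2.18 CPM, with Lyz2, Elane, S100a8, S100a9, Ncr1, Nkg7 and Gzma at 0 reads in every library. Of 9 erythroid and megakaryocyte markers 3 were tested and 1 fell, Gata1, at 2.19, 1.58 and 1.79 CPM against 0.311, 0.329 and 0.066 CPM (adjusted p = 0.00458, edgeR); their sum was between 4.05 and 4.95 CPM in the wild type and 2.63 and 3.36 CPM in the knockout, with Pf4 at 0 reads in every library. The plasma cell list had 5 genes in the counts, of which 3 entered the test and Sdc1 fell, at 20.6, 22.8 and 32.0 CPM against 11.1, 12.9 and 11.0 CPM (adjusted p = 0.00383), and their sum, mostly Irf4, was between 131 and 216 CPM and between 124 and 139 CPM. Of 8 stromal and endothelial markers the 1 tested, Pecam1, did not pass and made up nearly all of the sum, between 103 and 123 CPM and between 115 and 131 CPM, with Col3a1, Cxcl12, Pdgfrb and Kdr at 0 reads. The part of these markers in the results below was not tested. The libraries numbered 2 stood nearer to the other group than their partners did: among the 600 genes that passed the test, wild-type replicate 2 was the wild-type library closest to the knockout in 306 (51%), and knockout replicate 2 was the knockout library closest to the wild type in 320 (53.3%). Results below are therefore also given without both of these libraries where that ends a call.

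Of the 10 genes, 2 were higher in the knockout (Bcl2l1 and Bcl2a1b), 2 were lower (Bcl2 and Bid) and 6 did not pass the test. A gene passed at a Benjamini-Hochberg adjusted p under 0.05 in edgeR's quasi-likelihood test over all tested genes, of which 4.59% passed, 1.8% higher and 2.79% lower. The 3 libraries of each group did not overlap in the 4 genes that passed and overlapped in the 6 that did not, against 20.9% of all tested genes without overlap. Because the family was chosen with earlier results known, these shares describe it and do not test it. By role, 3 of the 4 anti-apoptotic genes, 0 of the 2 effectors and 1 of the 4 BH3-only genes passed. DESeq2 and limma-voom each also called 2 higher and 2 lower. Over all 13077 tested genes, DESeq2 called 327 higher and 466 lower, and limma-voom 239 higher and 381 lower. Later counts from these 2 tools are to be read beside these totals. The median log2 fold change over the 10 genes was -0.0084, beside 0.00395 over all tested genes. Being bulk RNA, the counts cannot tell fewer cells expressing a gene from less RNA per cell.

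**Figure D1:**
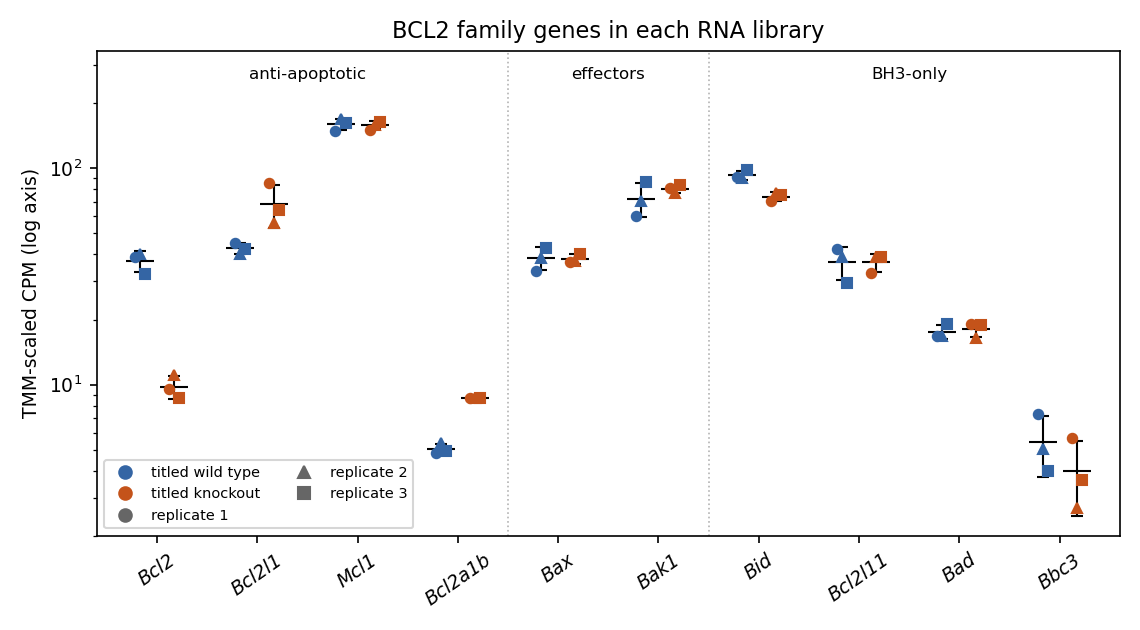
TMM-scaled CPM (log axis) of the 10 genes in each of the 6 RNA libraries, grouped by role, with colours for the group and symbols for the replicate number. Horizontal ticks and bars are the mean and SD of 3 libraries. The knockout libraries lie below the wild-type libraries for Bcl2 and Bid and above them for Bcl2l1 and Bcl2a1b, and the groups overlap for the other 6.

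**Figure D2:**
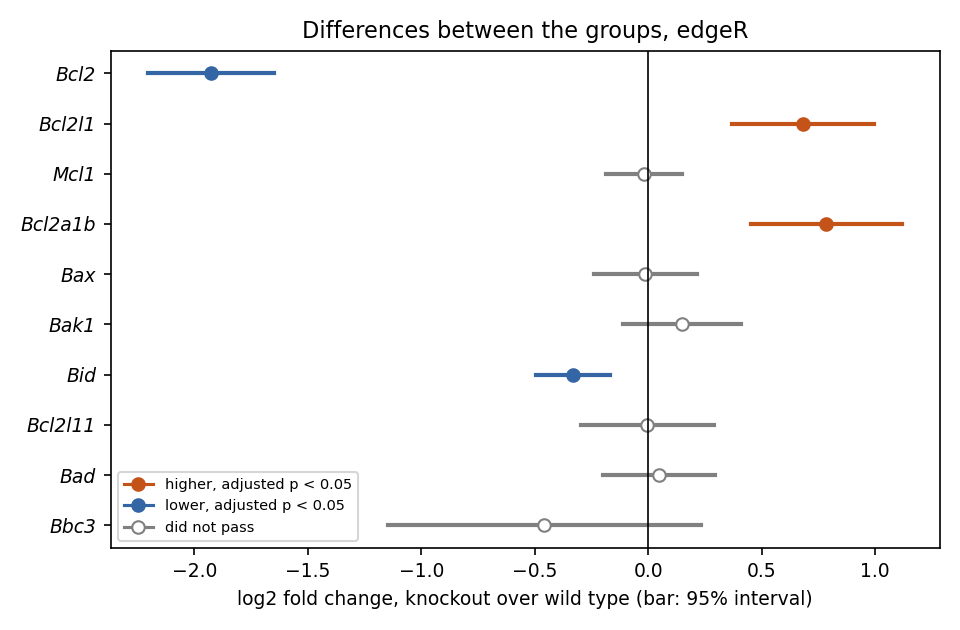
Log2 fold change of the knockout over the wild type for each gene, with its 95% interval from edgeR's fit of all tested genes. Filled points passed the test. The interval of Bcl2 lies between -2.20 and -1.65, apart from the intervals of the other 9 genes. That of Bbc3 is the widest and reaches down to -1.15.

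Bcl2 (ENSMUSG00000057329.7, chromosome 1, 106538176 to 106714290, mm10, whole gene span) is the founding member of the family, and its protein binds and restrains BAX, BAK and BH3-only proteins. Wild-type replicates 1, 2 and 3 had 39.1, 40.2 and 32.6 CPM of it, and knockout replicates 1, 2 and 3 had 9.57, 11 and 8.71 CPM. The lowest wild-type library was thus far above the highest knockout library. Bcl2 fell by 1.93 on the log2 scale ± 0.125 (SE), with a 95% interval from -2.20 to -1.65 and an adjusted p of 6.71e-05. It ranked first by p among all tested genes, while 171 of them differed by more in size. Its call held in all 14 other settings tried, with log2 fold changes from -2.02 to -1.85, and at -1.97 without both libraries numbered 2.

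Bcl2l1 (ENSMUSG00000007659.18, chromosome 2, 152758732 to 152833803) encodes BCL-XL, a close relative of BCL2 with the same targets, and by splicing a shorter pro-apoptotic form that a count per gene does not separate. Wild-type replicates 1, 2 and 3 had 45.2, 40.4 and 42.4 CPM, and knockout replicates 1, 2 and 3 had 85.9, 55.9 and 63.9 CPM. Knockout replicate 1 was the highest, and the knockout libraries spread more (SD 15.6 CPM) than the wild-type libraries (SD 2.43 CPM, n = 3 each). The difference was 0.68 ± 0.141 (SE) on the log2 scale, with a 95% interval from 0.37 to 1.00 and an adjusted p of 0.0211. Without knockout replicate 1 it was 0.489, still past the threshold, whereas without wild-type replicate 2 or 3 the adjusted p was 0.0854 or 0.0574. Leaving out both libraries numbered 2 gave 0.781 (adjusted p 0.0244).

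Since Bcl2 was lower and Bcl2l1 higher, their balance was also read within each library, where the library size cancels. There were 0.864, 0.996 and 0.77 Bcl2 reads per Bcl2l1 read in wild-type replicates 1, 2 and 3 and 0.111, 0.197 and 0.136 in knockout replicates 1, 2 and 3. The group means were 0.877 ± 0.11 and 0.148 ± 0.044 (SD, n = 3 each), or 5.91-fold apart. That the groups did not overlap follows from the separation of each gene above and adds nothing to it. These are ratios of reads from genes of different transcript length, so they compare libraries and do not give the ratio of the molecules. No test was made, as both genes were already described above.

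Mcl1 (ENSMUSG00000038612.16, chromosome 3, 95656944 to 95663179), which encodes a short-lived anti-apoptotic protein that early B cells require, had the most reads of the 10 genes in every library. It was at 149, 168 and 163 CPM in the wild type and at 151, 159 and 164 CPM in the knockout. The groups overlapped throughout, and the log2 fold change was -0.02 ± 0.0754 (SE), with an adjusted p of 0.958. Its 95% interval, -0.19 to 0.15 on the log2 scale, corresponds to 0.879-fold to 1.11-fold.

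Bcl2a1b (ENSMUSG00000089929.1, chromosome 9, 89199273 to 89207838) encodes A1, an NF-kappaB-induced anti-apoptotic protein of blood cells, and is 1 of several near-identical copies in the mouse. Its counts were low, at 4.8, 5.36 and 4.91 CPM (68, 95 and 74 reads) in the wild type and at 8.64, 8.68 and 8.71 CPM (139, 185 and 132 reads) in the knockout. Every knockout library exceeded every wild-type library, and the knockout libraries spread by only 0.0347 CPM (SD, n = 3). The log2 fold change was 0.79 ± 0.15 (SE), with an interval from 0.45 to 1.12 and an adjusted p of 0.0139. The call was lost without wild-type replicate 1 (adjusted p 0.0587) and without both libraries numbered 2 (adjusted p 0.104), where the log2 fold changes were 0.754 and 0.841. The copies on the same chromosome had few reads: Bcl2a1a had 0 in each library, Bcl2a1c had 1 in all and Bcl2a1d had 6 in all, 1 of them in the wild type. How reads with several matches were counted is not given in the sources used here, so reads that fit more than 1 copy may be missing or misplaced.

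Neither effector passed the test. Bax (chromosome 7, 45461695 to 45466903) was at 33.6, 38.6 and 43 CPM in the wild type and at 36.7, 37.2 and 40.3 CPM in the knockout, and its log2 fold change was -0.01 ± 0.102 (SE), with an interval from -0.24 to 0.21 (adjusted p 0.977). Bak1 (chromosome 17, 27019812 to 27028627) was at 60.2, 70.9 and 86.4 CPM in the wild type and at 81, 76.6 and 83.5 CPM in the knockout, with a log2 fold change of 0.15 ± 0.117 (SE), an interval from -0.11 to 0.41 and an adjusted p of 0.652. In both genes the wild-type libraries spread more widely than the knockout libraries (SD 4.69 against 1.94 CPM for Bax and 13.2 against 3.51 CPM for Bak1), and the knockout values lay inside the wild-type range. The span of Bak1 overlaps that of Ggnbp1, which had 377 reads over the 6 libraries beside 7612 for Bak1.

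Bid (ENSMUSG00000004446.12, chromosome 6, 120893119 to 120917062) encodes a BH3-only protein that caspase 8 cleaves, so that it joins death receptors to the mitochondria. It was at 91.1, 90.1 and 98.3 CPM in the wild type and at 70.5, 76.7 and 75.2 CPM in the knockout. The groups did not overlap, and Bid fell by 0.33 on the log2 scale ± 0.0731 (SE), with an interval from -0.49 to -0.17 and an adjusted p of 0.0308. This 1.26-fold difference was close to the threshold: leaving out any 1 of the 6 libraries gave adjusted p from 0.0623 to 0.11, with log2 fold changes from -0.356 to -0.288, and leaving out both libraries numbered 2 gave -0.374 (adjusted p 0.178).

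The remaining BH3-only genes did not pass. Bcl2l11, the gene of BIM (chromosome 2, 128126038 to 128162547), was at 42.2, 39 and 29.6 CPM in the wild type and at 32.8, 38.9 and 38.8 CPM in the knockout. Its groups overlapped, and the log2 fold change was -0.0034 ± 0.132 (SE), with an interval from -0.30 to 0.29. Bad (chromosome 19, 6941861 to 6951905), whose protein is held inactive by phosphorylation downstream of growth factors, was at 16.8, 16.8 and 19 CPM in the wild type and at 19.2, 16.4 and 18.9 CPM in the knockout, with a log2 fold change of 0.05 and an interval from -0.20 to 0.29. Bbc3, the p53 target that encodes PUMA (chromosome 7, 16308398 to 16318334), had the fewest reads of the 10 genes, at 7.35, 5.02 and 3.98 CPM in the wild type and at 5.66, 2.68 and 3.63 CPM in the knockout. Its log2 fold change was -0.46 ± 0.31 (SE) and its interval, from -1.15 to 0.23, includes a fall to 0.452-fold as well as a small rise. The adjusted p were 0.996 for Bcl2l11, 0.914 for Bad and 0.58 for Bbc3. The span of Bad overlaps that of Gpr137, which had 596 reads over the 6 libraries beside 1766 for Bad.

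**Figure D3:**
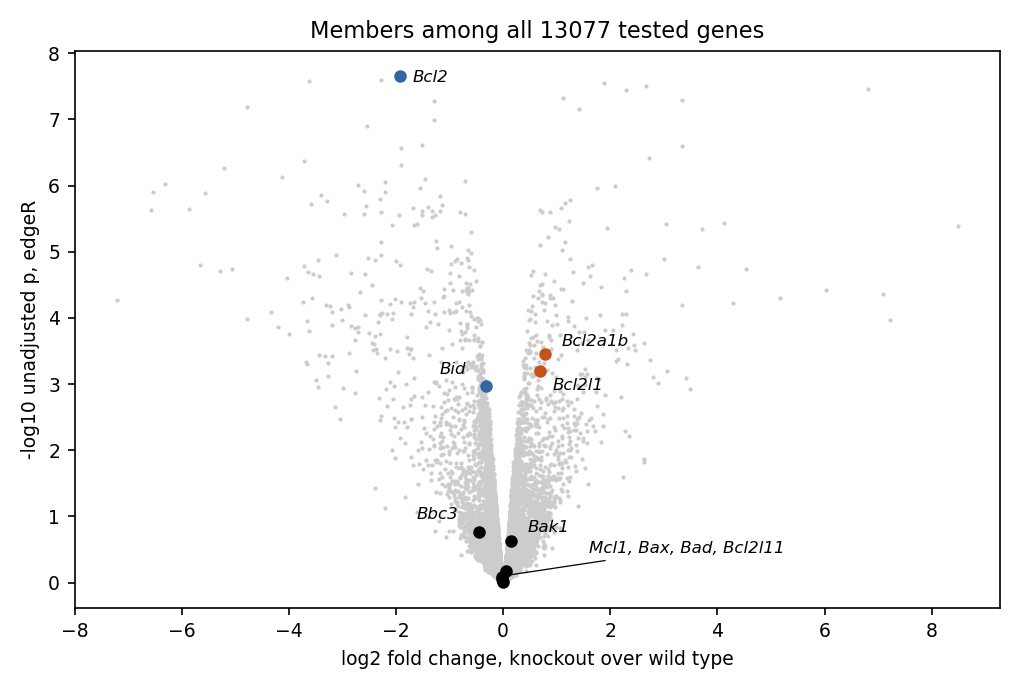
Each of the 13077 tested genes by its log2 fold change (knockout over wild type) and the -log10 of its unadjusted p in edgeR, with the 10 family genes marked. Bcl2 is the highest point of all, Bcl2l1, Bcl2a1b and Bid lie part of the way up, and the other 6 lie near the base.

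The chromosomal neighbours of the genes that passed were read next. Within 500 kb of Bcl2, 3 other genes were tested, Phlpp1, Kdsr and Vps4b, with log2 fold changes of 0.01, -0.13 and 0.01. Kdsr, only 6120 bases away, averaged 23.6 ± 2 and 21.7 ± 1.39 CPM in wild type and knockout (SD, n = 3 each, adjusted p 0.67). In the same window, 14 genes were tested around Bcl2l1, 4 around Bcl2a1b and 9 around Bid. EdgeR called 0 genes in each of the 4 windows. Genes at an unadjusted p under 0.05 numbered 0 around Bcl2, 2 around Bcl2l1, 0 around Bcl2a1b and 2 around Bid. In edgeR, at least 1946 of all 13077 tested genes had an unadjusted p under 0.05. The counts here and in the lists below are to be read beside that share. DESeq2 called 2 genes and limma-voom 1 gene around Bid, all higher in the knockout and so opposite in direction to Bid, and neither called any in the other windows. Transcripts that overlap the spans of Bcl2, Bcl2l1 and Bid were rare, with at most 37 reads over the 6 libraries for the ones matched to the files.

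The genes whose pattern over the 6 libraries was most like that of a called family gene were found by Euclidean distance between log2 CPM values centred on each gene's mean. For Bcl2 they were Bhlha15 (distance 0.373), Dennd2d (0.483) and Actr3b (0.531), which had log2 fold changes of -1.95, -1.91 and -1.91. For Bcl2l1 they were Trim30d, Nectin2 and Cdkn2d (distances from 0.168 to 0.216), for Bcl2a1b Col26a1, Ift122 and 4933432I03Rik (0.109 to 0.13), and for Bid Erg28, Slc30a5 and Vav2 (0.0677 to 0.0782). All libraries of a group are shared by these genes, so likeness here mostly reflects a similar difference between the groups.

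Around the 10 genes, 6 lists of related genes held 89 further tested genes, of which 1 was higher and 3 were lower in the knockout (4.49%, against 4.59% of all tested genes). Their median log2 fold change was 0.015. Among 8 tested relatives of the family, namely Bcl2l2, Bcl2l12, Bcl2l13, Bcl2l15, Pmaip1, Bnip3, Bnip3l and Becn1, edgeR called 0 (1 had an unadjusted p under 0.05), DESeq2 called 1 lower and limma-voom called 0. That gene was Pmaip1, which encodes the BH3-only protein NOXA and is named here after its values were seen. It was at 26.6, 24.5 and 22.2 CPM in the wild type and at 20.3, 16.9 and 15.8 CPM in the knockout, without overlap, with a log2 fold change of -0.47 ± 0.12 (SE) and an adjusted p of 0.0574 in edgeR and 0.0331 in DESeq2. Over the other settings its adjusted p ran from 0.00592 to 0.39. Hrk had 0 reads in every library, and Bok and Bik had 6 and 5 in all. Of the 17 relatives listed, 2 (Bcl2l10 and Bmf) matched no counted gene by symbol and were not analysed.

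The steps after mitochondrial release showed no called gene. Of 12 tested genes of the apoptosome, caspases and release factors, edgeR, DESeq2 and limma-voom each called 0. The unadjusted p in edgeR was under 0.05 for 1 of them, Apaf1, the scaffold of the apoptosome, averaging 100.4 and 115 CPM in wild type and knockout (adjusted p 0.241). Casp9, which the apoptosome activates, was at 9.6 CPM in wild type and 11.4 CPM in knockout on average. Of 8 tested inhibitors of apoptosis proteins, edgeR called 0 (and 0 had an unadjusted p under 0.05), as did both other tools, and Xiap, the caspase inhibitor, was at 95.2 and 97.6 CPM.

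Among 8 tested genes of death receptor signalling, 2 had an unadjusted p under 0.05 in edgeR. These were Mlkl, which did not pass (adjusted p 0.119), and Ripk3, which fell. Ripk3, the kinase of necroptosis, was at 12.9, 16.5 and 13.2 CPM in the wild type and at 4.29, 8.97 and 3.76 CPM in the knockout, giving a log2 fold change of -1.29 ± 0.282 (SE; adjusted p 0.0279). Knockout replicate 2 was the highest of its group, and without both libraries numbered 2 the log2 fold change was -1.69 (adjusted p 0.00242). The call was lost without any 1 library other than knockout replicate 2 (adjusted p up to 0.0871) and with library totals as the only scaling (0.0542). Fas, the receptor itself, had 22 reads over the 6 libraries and was not tested, and Tnfrsf1a had 0.

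Of 31 tested regulators of BCL2 family proteins, 9 had an unadjusted p under 0.05 in edgeR. At the adjusted threshold, Pim2 fell and Btrc rose. Pim2, a serine/threonine kinase gene of the STAT5 pathway whose product can phosphorylate BAD, was at 35.8, 30.1 and 21.9 CPM in the wild type and at 14.7, 14.1 and 14.7 CPM in the knockout (log2 fold change -1.01 ± 0.159 SE, adjusted p 0.00498, and 0.0509 without both libraries numbered 2). The related Pim1 was at 206 and 157 CPM on average with overlapping groups (adjusted p 0.24). Btrc, the gene of the beta-TrCP ubiquitin ligase subunit, was at 33.6, 33 and 28.6 CPM in the wild type and at 44.9, 42.6 and 39.8 CPM in the knockout (log2 fold change 0.42 ± 0.094 SE, adjusted p 0.0322). Its call was lost without any 1 library other than knockout replicate 3 (adjusted p up to 0.0964), with library totals only (0.0511) and without both libraries numbered 2 (0.194).

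Of 22 tested regulators of BCL2 family transcription, 4 had an unadjusted p under 0.05 in edgeR and 1 fell at the adjusted threshold. This was Il7r, the interleukin 7 receptor chain, at 76.1, 96.3 and 73.6 CPM in the wild type and at 24.7, 40.6 and 18.9 CPM in the knockout, giving a log2 fold change of -1.53 ± 0.229 (SE; adjusted p 0.00392). Stat5a and Stat5b, the factors that the receptor activates, were at 55.4 and 123 CPM in the wild type and at 52.1 and 128 CPM in the knockout (adjusted p 0.733 and 0.794). Trp53, the gene of p53, was at 75.5 and 87.2 CPM (adjusted p 0.529). Foxo1, named after its values were seen, was at 39 and 62.4 CPM on average without overlap of the groups, with an adjusted p of 0.0741 in edgeR, 0.00397 in DESeq2 and 0.00257 without wild-type replicate 2, in a range from 5.09e-09 to 0.218 over all other settings.

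**Figure D4:**
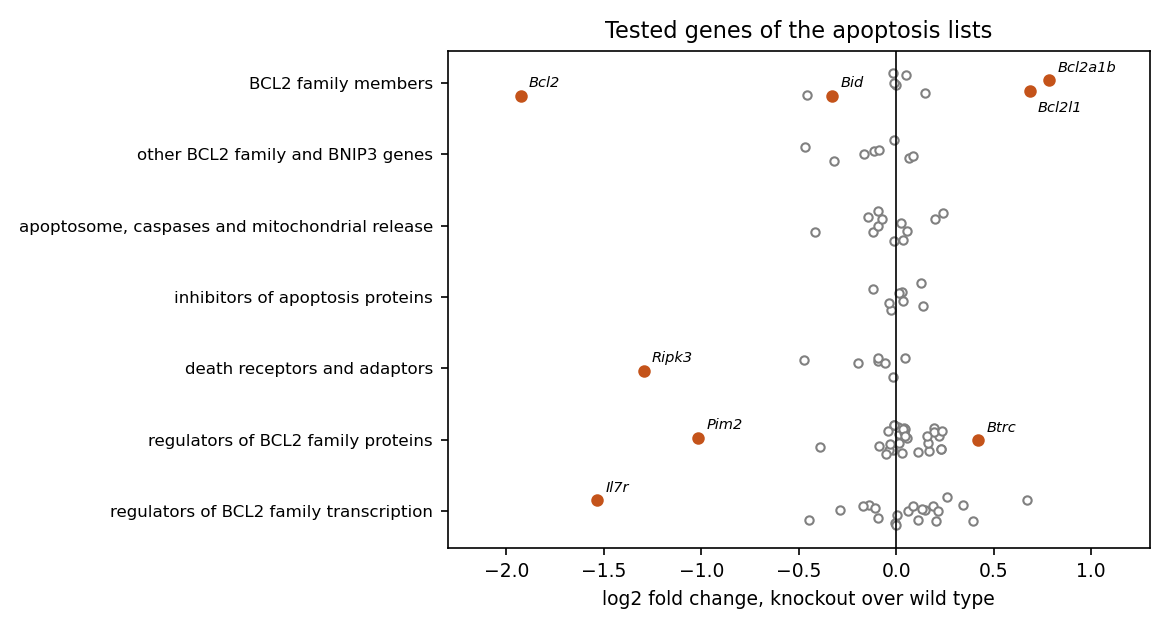
Log2 fold change (knockout over wild type) of each tested gene in the family and in the 6 lists around it, with filled points for genes that passed edgeR's test. Most points lie close to 0, and the 4 filled points outside the family are Ripk3, Pim2, Btrc and Il7r.

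The 250 bases before the first listed start are given for 3 of the called genes, and Bid is not shown. Starts are from RefSeq for GRCm38.p6, and which start these cells use was not tested. Bcl2l1 has 3 listed starts. Sequences are read 5′ to 3′ on the strand of the gene, with CpG dinucleotides in capitals. For Bcl2 the window is chr1:106714291-106714540 (minus strand), for Bcl2l1 chr2:152831729-152831978 (minus strand, inside the annotated gene span) and for Bcl2a1b chr9:89199023-89199272 (plus strand).
Bcl2: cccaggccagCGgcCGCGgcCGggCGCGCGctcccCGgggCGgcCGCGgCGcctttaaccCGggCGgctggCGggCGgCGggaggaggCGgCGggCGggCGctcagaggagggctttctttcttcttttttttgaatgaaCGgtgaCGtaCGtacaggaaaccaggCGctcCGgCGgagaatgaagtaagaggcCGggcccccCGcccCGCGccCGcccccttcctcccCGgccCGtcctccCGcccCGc
Bcl2l1: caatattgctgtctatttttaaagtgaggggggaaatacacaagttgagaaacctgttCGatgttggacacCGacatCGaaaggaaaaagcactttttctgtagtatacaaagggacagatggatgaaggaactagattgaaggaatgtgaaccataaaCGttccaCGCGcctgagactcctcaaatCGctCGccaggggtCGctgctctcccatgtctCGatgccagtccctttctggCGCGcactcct
Bcl2a1b: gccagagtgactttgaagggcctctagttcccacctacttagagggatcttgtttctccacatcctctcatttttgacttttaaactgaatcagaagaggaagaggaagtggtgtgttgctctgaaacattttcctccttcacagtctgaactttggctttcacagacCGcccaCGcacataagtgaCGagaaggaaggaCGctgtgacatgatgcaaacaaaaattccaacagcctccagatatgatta

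These windows differ widely in composition. That of Bcl2 holds 36 CpG dinucleotides and 74.8% G and C, that of Bcl2l1 12 and 47.6%, and that of Bcl2a1b 4 and 44.8%, where the median of 32851 RefSeq windows of this length is 52.4%. Taking the first window of each of the 10 genes, 8 lie above that median in G and C content and 9 above the median ratio of observed to expected CpG (0.373), and the exception in the latter is Bcl2a1b. For Bcl2l1 the values depend on the start chosen. Its first window has a ratio of 0.85, and its later windows hold 53.2% and 48.4% G and C, with ratios of 0.62 and 0.

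A search of the 10 first windows, on both strands, for CCATNTT (a core of the YY1 site, YY1 being a factor this series immunoprecipitated) matched Bak1 and Bad, a search for TTCNNNGAA (the STAT palindrome) matched none, and a search for GTAAACA (a FOXO core) matched Bcl2l11. Of all windows, 12.4% hold the first, 7.02% the second and 3.17% the third motif. Over the 16 windows of the 10 genes, the only further match was the FOXO core at a later listed start of Bbc3. The matches in the first windows are shown with up to 10 bases on each side. Each is on the strand of its gene, with the match in capitals.
Bak1, chr17:27028806-27028832: ctagagggagAAGATGGaagaggaggc
Bad, chr19:6941840-6941860: gcccacaaccAAGATGGtacc
Bcl2l11, chr2:128125801-128125827: agacactaggGTAAACAcgccggggtg
None of the genes with a match passed the test above, and a match or its absence in 250 bases says nothing about binding of the factor.

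**Figure D5:**
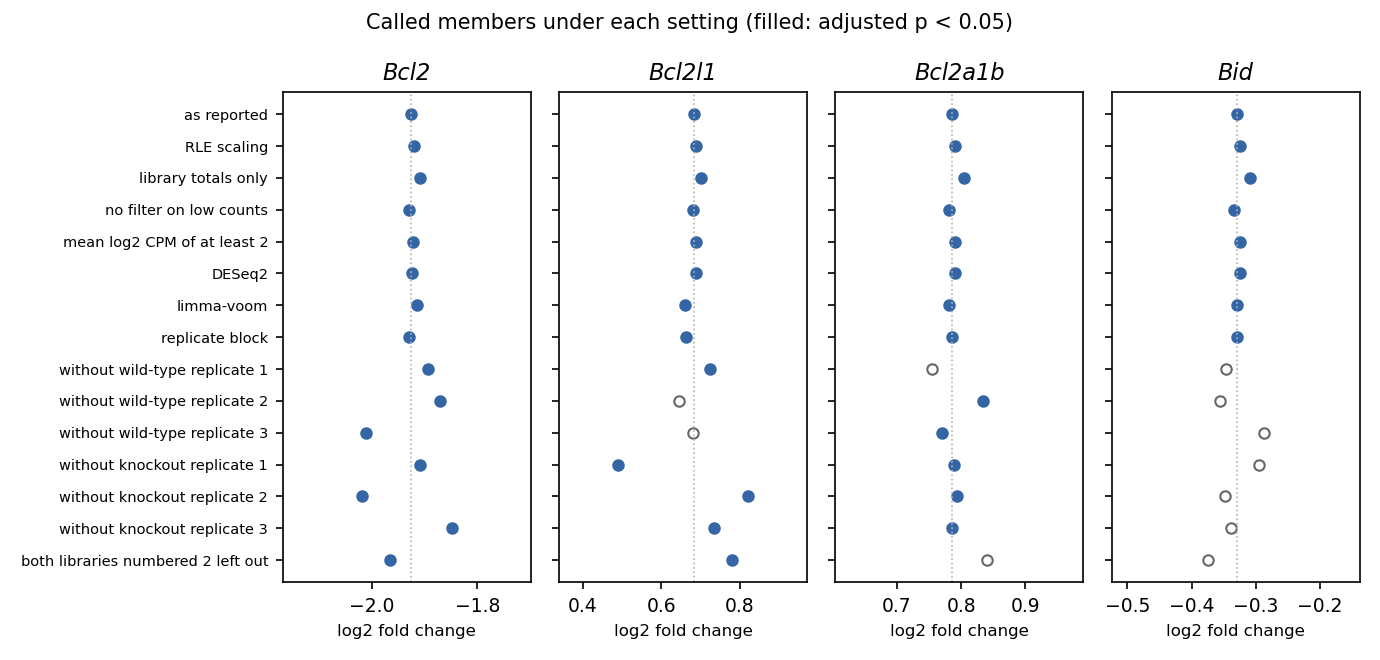
Log2 fold change of the 4 called genes as reported and in 14 other settings, one panel per gene with its own axis, filled where the adjusted p was under 0.05. Bcl2 is filled in every setting, whereas Bid is open wherever a library was left out.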

How the data were processed

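The authors deposited 1 file per RNA library with a whole-number count per gene, not normalised, per the file headers. Ribosomal RNA was depleted from total RNA before library preparation, per the labels' protocols. Tools named without role or order in the submitters' processing notes include STAR 2.5.3a and featureCounts 2.0.0, with the build mm10. The strand setting and annotation release were not given in the sources used here. Chromatin samples (9) were not analysed here. Groups and replicate numbers come from the titles.

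Identifiers were matched to symbols by the supplied name table (54587 of 55335). Genes kept by filterByExpr were scaled by TMM and tested with edgeR 4.0.16 (quasi-likelihood, no covariate) in R 4.3.3. The SE was the absolute log2 fold change divided by the square root of the F statistic of edgeR's test. Intervals are 95% and rest on that SE and its degrees of freedom. The family genes and all lists were chosen with earlier results of these data known. Named genes were the 10 family genes, Msl2, Blnk, copies of Bcl2a1b and up to 4 called genes per list and direction. Other list genes, such as those that did not pass a test and are given with their values, were chosen as examples after their values were seen. Libraries of a group differed by more than sampling noise (chi-square per degree of freedom from 7.38 to 19.3). The floor of 3 reads covers counting error only, whereas intervals of fold changes come from the SE described above and include the spread between libraries. Alternatives were RLE, library totals, other filters (none, or a mean log2 CPM of at least 2), DESeq2 1.42.0, limma-voom 3.58.1, a replicate block and left-out libraries, and leaving out both libraries numbered 2 was chosen after seeing the data. On simulated counts for this comparison (12838 genes tested), 53.8% of 65 genes changed 1.5-fold, 79.1% of 67 changed 2-fold and 93.5% of 62 changed 4-fold were recovered. Of 12644 unchanged genes, 10 were called. Changes below 1.5-fold, such as that of Bid, were not simulated, and counts were drawn independently for each library.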

Additional observations from a re-analysis of the deposited data

How the results depend on the processing

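Over the 10 family genes and 14 other settings, 129 of 140 pairs of gene and setting kept their direction where called and their side of the threshold, 11 lost a call, 0 gained one and 0 reversed. The 6 genes that did not pass were never called, though the sign of Mcl1, Bcl2l11 and Bax, all near 0, varied. Leaving out single libraries gave 1 to 2 family genes higher and 1 lower (Bcl2), and leaving out both libraries numbered 2 gave 1 higher and 1 lower. Over all genes, single libraries left out gave 138 to 227 higher and 242 to 316 lower. Without the filter on low counts 482 were higher and 721 lower, with only genes at or above a mean log2 CPM of 2 there were 232 lower, and without both libraries numbered 2 there were 224 lower.

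With a replicate block, 381 genes were higher and 565 lower, and the same 4 family genes passed. Whether the numbers pair the libraries was not tested. Deviations from the group means of same-numbered libraries correlated at 0.0643, 0.225 and 0.435 for replicates 1, 2 and 3. Among differently numbered libraries, only wild-type replicate 1 with knockout replicate 2 correlated positively (0.265), and the lowest value was -0.404. The planned share of Bcl2 in the anti-apoptotic level per transcript length was not run, because only whole gene spans were at hand.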
